A study of Homo sapiens with 18 samples.

Results

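The chromatin map described here is that of SETDB1, an H3K9 methyltransferase, in wild-type (WT) U937 cells, an established human acute myeloid leukaemia line. Chromatin immunoprecipitation and sequencing (ChIP-seq) with a Proteintech antibody gave 2 libraries, each with its own list of called peaks. A peak counted as shared when a replicate 1 peak overlapped a replicate 2 peak by 1 bp or more. By this rule 12305 of 23430 replicate 1 peaks were shared, 52.5% of them. From the other side, 13458 of 24367 replicate 2 peaks (55.2%) overlapped a replicate 1 peak. All but 1 of the shared peaks lay on chromosomes 1 to 22 and X, and these 12304 were analysed.

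The series holds 18 samples. The heterochromatin mark H3K9me3 and the Polycomb mark H3K27me3 were each mapped in 2 libraries of 3 U937 derivatives. These carried a control guide (sgControl), a knockout of SUV39H1 (SKO) or a knockout of SUV39H1 and SUV39H2 (DKO). The SETDB1 map comes from WT cells and was not repeated in the knockouts. The 4 input samples have no file among those used here. The labels do not say whether knockout lines were clones or pools, or whether replicates were separate cultures, so the spread between libraries may be technical. A peak list holds no expression, so the identity of the cells and the loss of the targeted genes could not be checked.

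SETDB1 places methyl groups on lysine 9 of histone H3. It is brought to transposable elements and to the 3′ exons of zinc finger genes by KRAB zinc finger proteins, which bind DNA in a sequence-specific way, and their corepressor TRIM28. ATF7IP is its stabilising partner, and the HUSH complex, with its subunits TASOR, MPP8 and periphilin, acts in the same pathway at retroelements. Zinc finger genes lie in clusters, many of them on chromosome 19, and their near-identical relatives make values of single members uncertain where reads match several copies.

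Promoter sequence is shown for 5 genes, because peak summits at gene starts formed a small class whose promoter windows held an ETS element more often than all promoter windows, and whose peaks lay in H3K9me3 domains less often than shared peaks as a whole. Promoter windows came from RefSeq on GRCh38.p14 and span 250 bases before to 50 after each start. They were matched by coordinates, and 15812 of 19974 protein-coding genes had one. The 250 bases before the start are printed 5′ to 3′ on the gene's strand, with every match to CCGGAAG, an ETS factor element, or its reverse complement in capitals. COX16 (chr14:70359684-70359933, minus strand) and RPF1 (chr1:84479016-84479265, plus strand) held the strongest such peaks. SCGB2B2 (chr19:34677160-34677409, minus), ZNF197 (chr3:44624786-44625035, plus) and RPS6KC1 (chr1:213050991-213051240, plus) were the next strongest with the element. These genes were chosen after their values were seen. Their peaks are not examples of the low H3K9me3 share, since all 5 lay in domains in all 4 knockout libraries. In sgControl, those of SCGB2B2 and ZNF197 lay inside in 2 libraries, that of RPS6KC1 in 1, and those of COX16 and RPF1 in 0.
COX16: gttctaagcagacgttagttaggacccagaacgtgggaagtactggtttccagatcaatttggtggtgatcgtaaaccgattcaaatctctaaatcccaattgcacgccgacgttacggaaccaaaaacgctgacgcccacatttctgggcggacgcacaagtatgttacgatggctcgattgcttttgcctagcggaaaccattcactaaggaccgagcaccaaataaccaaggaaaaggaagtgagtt
RPF1: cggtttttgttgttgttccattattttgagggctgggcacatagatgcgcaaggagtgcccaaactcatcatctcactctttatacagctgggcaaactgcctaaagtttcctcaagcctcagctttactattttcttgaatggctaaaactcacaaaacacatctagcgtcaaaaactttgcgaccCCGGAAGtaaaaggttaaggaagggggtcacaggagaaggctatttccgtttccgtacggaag
SCGB2B2: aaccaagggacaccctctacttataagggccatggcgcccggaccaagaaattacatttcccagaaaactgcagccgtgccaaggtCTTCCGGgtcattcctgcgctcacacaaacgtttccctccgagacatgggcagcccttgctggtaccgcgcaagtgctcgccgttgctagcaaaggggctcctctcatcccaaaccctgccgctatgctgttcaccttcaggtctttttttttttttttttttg
ZNF197: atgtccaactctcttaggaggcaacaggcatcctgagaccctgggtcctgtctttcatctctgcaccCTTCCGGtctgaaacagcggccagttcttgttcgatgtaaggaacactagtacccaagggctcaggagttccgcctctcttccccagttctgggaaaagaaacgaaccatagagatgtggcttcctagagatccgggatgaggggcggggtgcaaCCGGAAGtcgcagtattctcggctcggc
RPS6KC1: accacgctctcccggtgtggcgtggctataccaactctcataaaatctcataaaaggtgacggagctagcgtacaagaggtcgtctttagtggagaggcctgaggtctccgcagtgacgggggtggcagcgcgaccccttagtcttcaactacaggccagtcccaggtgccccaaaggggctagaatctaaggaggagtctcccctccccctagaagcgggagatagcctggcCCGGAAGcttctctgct

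The shared peaks were mostly narrow and weak, with a small, very strong and very broad upper end. Their median width was 1080 bp, and widths ran from 260 to 40307 bp. The median signal, the authors' enrichment score of the peak, was 4.30 in replicate 1 (1.69 to 166). In the overlapped replicate 2 peak, the one of highest signal where there were several, it was 4.73 (1.82 to 148). The median −log10 p was 9.25 in replicate 1 and 8.72 in replicate 2. The peaks found in 1 library only were smaller and weaker. The 11123 replicate 1 peaks without a partner had a median width of 466 bp and a median signal of 3.50, and none was above 7.77. In replicate 2 the 10909 peaks without a partner had a median width of 320 bp and a median signal of 3.81, and none was above 8.55. The share with a partner was higher among strong peaks. All of the 1000 strongest replicate 1 peaks were shared, against 68.2% of ranks 3001 to 10000 and 34.1% of the weakest 13427.

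The libraries agreed best at the strong peaks. Across the 12304 shared peaks, replicate 1 and replicate 2 signal gave Spearman's rho = 0.63 and Pearson's r = 0.80 on the log2 scale, and −log10 p gave rho = 0.64. Peaks are not independent replicates, so no p is given. Of the 100 strongest peaks in replicate 1, 90 overlapped one of the 100 strongest in replicate 2. Summits lay 175 bp apart in the median, and 83 bp apart for the 100 strongest peaks. In 106 shared peaks the replicate 2 signal was at least 3 times that of replicate 1. In 101 of these the replicate 2 peak also overlapped a second, stronger replicate 1 peak, so a broad region was called as 1 peak in replicate 2 and as several in replicate 1. No shared peak had the opposite excess. Each shared peak was paired with the overlapped replicate 2 peak of highest signal, which favours an excess in replicate 2. The imbalance is therefore no measure of a difference between the libraries.

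**Figure D1:**
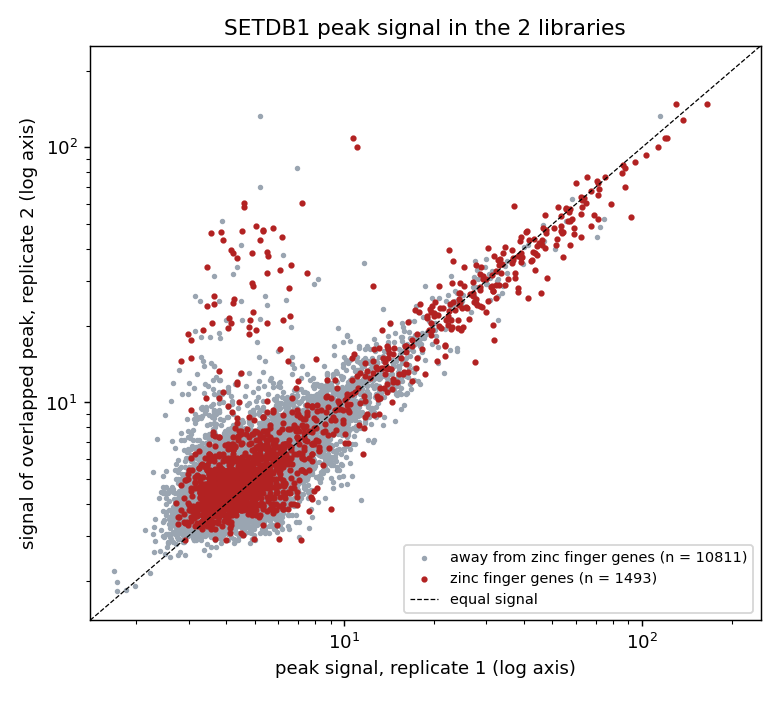
Each point is 1 shared peak, placed by its replicate 1 signal and that of the overlapped replicate 2 peak of highest signal. Both axes are log axes. Red points lie at zinc finger genes (n = 1493), and they fill the upper end of the diagonal. The column of points above the diagonal at low replicate 1 signal holds the 106 peaks with at least 3 times more signal in replicate 2.

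The strong end of the map was mostly made of zinc finger genes. A gene was counted as carrying SETDB1 when a shared peak overlapped its body or the 2 kb on either side. Zinc finger genes were those with ZNF, ZSCAN, ZKSCAN or ZFP symbols. They held 88% of the 100 strongest peaks, 39.5% of ranks 101 to 500, and 10.6% of ranks 501 to 1000. From there the share stayed level, at 10.6% of ranks 1001 to 3000 and 10.6% of the weakest 9304. The median width fell along with the signal, from 10066 bp in the top 100 to 4810 bp, 2919 bp, 1893 bp and 890 bp in the following ranks. Of the 80 peaks of 10 kb or more, 66 lay at zinc finger genes, against 149 of the 1733 peaks under 500 bp.

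**Figure D2:**
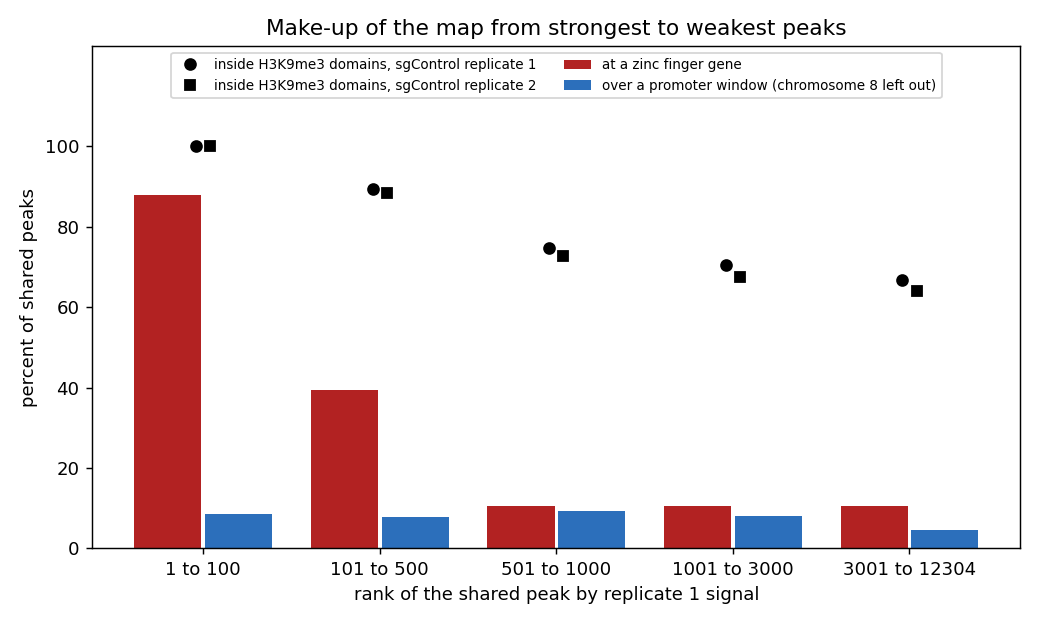
Bars give the percent of shared peaks at a zinc finger gene and over a promoter window in 5 ranges of replicate 1 signal. Points give the percent inside H3K9me3 domains in each sgControl library. The zinc finger share falls from 88% to 10.6% at ranks 501 to 1000, while the H3K9me3 share falls from 100% to 66.6% and 64.0%.

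The strongest peak lay over ZNF180 on chromosome 19 (chr19:44471927-44488114), with a signal of 166 in replicate 1 and 148 in replicate 2. Its summit stood 2.59 kb from the 3′ end of the gene. ZNF557 followed with 138 and 128 (chr19:7079407-7093181). ZNF12 carried a peak of 30764 bp (chr7:6671666-6702429) with signals of 130 and 148. These peaks ranked among the 4 strongest peaks in both libraries. ZFP90 on chromosome 16 reached 122 and 109, and ZNF596 on chromosome 8 reached 120 and 109. RBAK, which encodes a KRAB zinc finger protein that binds the retinoblastoma protein, had signals of 115 and 132. Its symbol fell outside the zinc finger list. A peak over ZNF69 and ZNF700 had 113 and 100, and ZNF37A on chromosome 10 had 103 and 93.6.

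The rest of the 20 strongest peaks followed the same pattern. ZNF121, ZNF556, ZNF564, ZNF23, ZNF268, ZNF77, ZNF84, ZNF7, ZFP37 and ZNF583 had replicate 1 signals from 94.9 down to 71.2. Their replicate 2 signals ran from 87.5 to 53.5. ZNF556 differed most between libraries among these, with 91.8 in replicate 1 and 53.5 in replicate 2. Rank 17 lay over ZNF473CR, a non-coding gene, with 74.3 and 52.2, and its summit was 10.6 kb from ZNF473. Its replicate 2 peak also overlapped the adjoining rank 40 peak over ZNF473 (58.0 in replicate 1), so the value of 52.2 belongs to both. Rank 18 lay over ZNF271P, a zinc finger pseudogene, with 72.4 and 48.9. The 20 peaks had −log10 p from 478 to 1555 in replicate 1 and from 327 to 1238 in replicate 2.

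Several strong peaks away from coding zinc finger genes lay over zinc finger pseudogenes. ZNF33CP (rank 23) had signals of 70.8 and 44.4, ZNF252P (rank 39) 58.3 and 62.8, and ZKSCAN8P2 (rank 58) 50.9 and 40.02. ZNF887P (rank 82) had 41.4 and 41.3. Other strong peaks lay at genes with no zinc finger. RBPJ, the DNA-binding effector of Notch signalling, had 35.2 and 32.3. IGF1R, the receptor of insulin-like growth factor, had 32.9 and 32.6. KCNQ1, a potassium channel gene in an imprinted region, carried 13 shared peaks, the strongest at 26.96 and 28.44 (chr11:2658489-2662118). That peak also lay at the non-coding gene KCNQ1OT1, and KCNQ1 spans more than 100 kb. The widest peak of the map covered 40307 bp (chr16:3283696-3324002) over ZNF263, TIGD7, ZNF75A and OR2C1. It had a signal of 39.0 in replicate 1 and 43.1 in replicate 2. Among the 7 widest peaks, 1 lay away from zinc finger genes. It covered 27103 bp (chr15:25050037-25077139) over SNORD116 small nucleolar RNA genes within SNHG14, an imprinted host transcript, with 23.1 and 24.2. Genes outside the 20 strongest peaks were picked here after their values were seen.

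Of 19974 protein-coding genes, 3607 carried a shared peak, which is 18.1%. Of zinc finger genes, 395 of 557 did, 70.9%. On chromosome 19 the count was 222 of 258 zinc finger genes, and on other chromosomes 173 of 299. Other genes of chromosome 19 carried a peak in 159 of 1193 cases, 13.3%. The median span was 23.4 kb for zinc finger genes and 24.2 kb for all genes. Among genes of 10 to 30 kb, 217 of 288 zinc finger genes and 572 of 5203 others carried a peak. Longer genes of other kinds carried peaks more often, with 1307 of 3316 above 100 kb. Genes of other types, mostly non-coding RNA and pseudogenes, carried a shared peak in 2410 of 39124 cases (6.16%). For lncRNA genes this was 1681 of 18177, for transcribed pseudogenes 113 of 1246 and for tRNA genes 24 of 443.

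The strongest summits lay toward the end of zinc finger genes, where the exon for the finger array usually sits. The annotation used gives gene spans and no exons, so position is given along the body, from start to end, for genes with a known strand. Of the 78 pairs of a zinc finger gene and a summit among the 100 strongest peaks, 40 lay in the last 20% of the gene and 1 in the first 20%. The median distance to the 3′ end was 3.58 kb. For ranks 101 to 500, 78 of 140 pairs lay in the last 20% and 5 in the first 20%. The lean faded with rank. Below rank 3000, 114 of 722 pairs lay in the last 20% and 163 in the first 20%. Over all shared peaks the last 20% of the body held 24.8% of zinc finger pairs and 16.2% of pairs with other genes. For those other genes the first 10% of the body held 16.5% of pairs, more than any other 10% of it. ZNF180 (summit at 90.1% of the body), ZNF77 (95.5%), ZNF564 (92.1%) and ZNF23 (89.8%) were examples near the end. ZNF37A lay nearer the middle, at 42.7%.

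**Figure D3:**
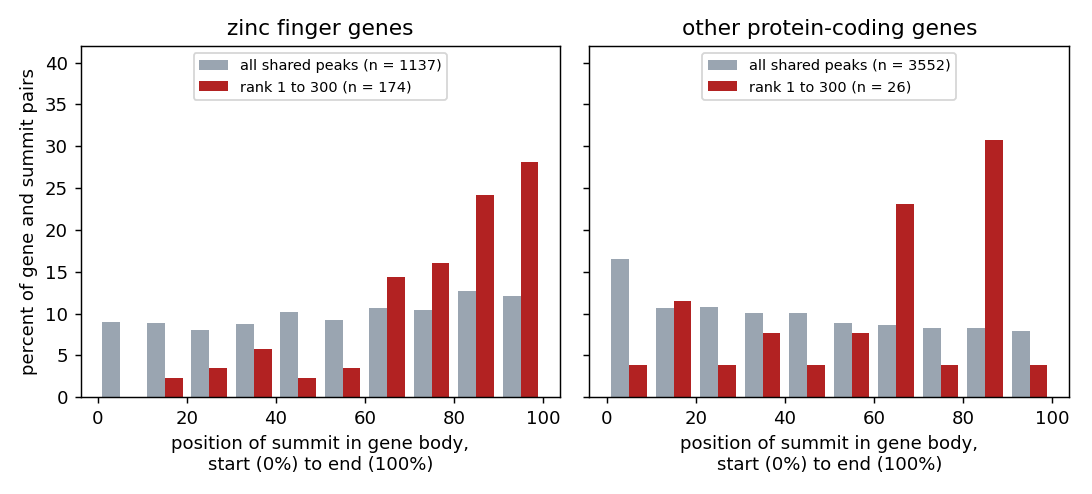
Bars give the percent of pairs of a gene and a peak summit in each step of 10% along the gene body, from start (0%) to end (100%), for zinc finger genes on the left and other protein-coding genes on the right. Red bars (300 strongest peaks) rise toward the end of zinc finger genes, where the last 10% holds 28.2% of 174 pairs. The red bars on the right rest on 26 pairs only.

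Many zinc finger genes carried more than 1 shared peak. The 395 genes with a peak made 1579 pairs of a gene and a peak. The 5 protein-coding genes with the most shared peaks were ARHGAP39 (24), a GTPase regulator on chromosome 8, ZNF721 (19), ZNF544 (17), ZNF567 (17) and VPS13B (17). VPS13B, which encodes a lipid transfer protein, spans 864 kb and so had 1.97 peaks per 100 kb. ZNF544 had 35.0 per 100 kb and ARHGAP39 had 14.0. The strongest peak in ARHGAP39 had 9.98 in replicate 1 and 9.37 in replicate 2, and that in VPS13B 9.19 and 4.61. ZNF721 reached 51.8 and 43.6.

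Other gene families carried SETDB1 less often than zinc finger genes, and with lower signals. Clustered protocadherin genes, cell adhesion genes whose long transcripts overlap, had a peak in 22 of 53 cases (41.5%) against the background of 18.1%. Their median span was 110 kb, and other genes above 100 kb carried a peak in 39.4% of cases. Overlapping genes share peaks, and the strongest had 5.92 and 7.11 (PCDHA1 and PCDHA2). Of olfactory receptor genes 12 of 392 carried a peak, of replication-dependent histone genes 2 of 69, and of HOX genes 1 of 39 (HOXD13, with 2.81 and 3.17). The 2 histone genes, H4C3 and H1-6, were counted by the same peak, which lay outside both bodies. Olfactory receptor and histone genes are short, with median spans of 2.94 and 0.494 kb, and protein-coding genes under 10 kb other than zinc finger genes carried a peak in 297 of 5590 cases. Ribosomal protein genes carried one in 11 of 81 cases. The strongest was next to RPL12, with 16.3 and 13.2, followed by RPL26, RPS7 and RPL31. Among 2400 genes transcribed by RNA polymerase III, 67 carried a peak, as did 59 of 1998 microRNA genes and 218 of 2300 long intergenic RNA genes, against 6.16% of all genes of other types.

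Of 28 listed genes of H3K9 methylation, 10 (35.7%) carried peaks, against 18.1% of all protein-coding genes. These are long genes, with a median span of 50.0 kb, and genes of 30 to 100 kb other than zinc finger genes carried a peak in 19.5% of cases. The median over the 10 genes of the strongest replicate 1 signal was 5.996. Within the list TASOR2 had the strongest by replicate 1 signal, with 12.5 in replicate 1 and 8.92 in replicate 2. TASOR, a HUSH subunit, was next with 9.25 and 9.48. Both peaks lay at or just before the gene start. The list is not complete, since it left out KDM3B, an H3K9 demethylase gene with a peak of 11.0 and 11.2. KDM3A, an H3K9 demethylase, had 8.19 and 7.93, and ATF7IP, the partner of SETDB1, had 6.77 and 7.11 at the strongest of its 6 peaks. SETDB1, SUV39H1 and SUV39H2 carried no shared peak. Of Polycomb genes 2 of 27 (7.41%) carried one, JARID2 with 6.06 and 6.08 and PHC2 with 5.72 and 8.22. Of germline genes 2 of 30 did (TDRD9 and STAG3), and of cancer testis antigen genes 0 of 81. The cancer testis antigen genes had a median span of 6.50 kb. Among protein-coding genes under 10 kb other than zinc finger genes, 5.31% carried a peak.

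Lists of immune and myeloid genes lay on both sides of the background of 18.1%. Of interferon stimulated genes 7 of 46 (15.2%) carried a peak. CMPK2, a mitochondrial nucleotide kinase induced by interferon, had 16.9 and 17.9 at the strongest of its 4 peaks (chr2:6842622-6848467). MX1, DDX60 and RSAD2 followed with replicate 1 signals from 5.80 to 4.50. The RSAD2 peak also lay over the start of CMPK2. Of nucleic acid sensing genes 2 of 23 carried a peak. RNASEH2B, a subunit of ribonuclease H2, carried a broad peak of 9703 bp with 16.2 and 10.9, and IFI16, a DNA sensor, had 4.87 and 5.01. Antigen presentation genes (0 of 23) and genes for type I interferons and their receptors (0 of 19) carried none. Both lists hold mostly short genes, with median spans of 7.19 and 0.988 kb. Protein-coding genes under 10 kb other than zinc finger genes carried a peak in 5.31% of cases. Myeloid and leukaemia regulators carried one in 10 of 30 genes (33.3%). The median over these 10 genes of the strongest replicate 1 signal was 4.43, against 4.95 over all protein-coding genes with a peak. FLI1 had 5.67 and 7.68, RUNX1 5.43 and 4.58, KIT 5.28 and 4.78, and SPI1, which encodes PU.1, 5.21 and 6.69. The myeloid list had a median span of 21.3 kb, with FLI1 and RUNX1 above 100 kb. Genes other than zinc finger genes carried a peak in 11.0% of cases at 10 to 30 kb and in 39.4% above 100 kb. Length and list were not separated here. Of imprinted genes 6 of 30 carried a peak, with KCNQ1 followed by ZNF331 (8.02 and 14.9), ZNF597 (4.33 and 4.50) and SNURF (3.78 and 3.81). SNRPN was counted by the same peak as SNURF. ERV3-1, a retroviral envelope gene next to ZNF117, was the 1 of 21 domesticated retroviral genes with a peak, at 15.3 and 13.9.

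Relative to genes, the map was spread widely. Summits lay inside a protein-coding gene body for 45.4% of shared peaks, while such bodies covered 41.6% of the genome. A further 15.7% lay within 10 kb of a gene, 25.2% between 10 and 100 kb, and 13.7% (1680 peaks) beyond 100 kb. A summit lay 36.8 kb from the nearest gene start in the median. Gene starts on chromosome 8 were not analysed here. Of the 11519 peaks off that chromosome, 636 overlapped a promoter window, 5.52%. For peaks seen in replicate 1 only this was 2.05%, and for those seen in replicate 2 only 1.86%, though these are also narrower. Of the 94 peaks among the 100 strongest that were off chromosome 8, 8 overlapped a window and none had its summit within 1 kb of a gene start.

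In 185 peaks the summit itself lay in a promoter window. They met 226 windows of 209 genes. The COX16 peak had signals of 21.99 and 25.03, with its summit 175 bases before the start. The RPF1 peak had 16.6 and 15.2, and that of RPS6KC1 9.49 and 19.6. COX16 encodes a factor for assembly of cytochrome oxidase, and RPF1 a ribosome biogenesis factor. By replicate 1 signal the next after RPF1 were LOC124901807 (15.7 and 13.2), TBC1D19 (14.5 and 11.6), RTTN (13.5 and 23.4), WDR11 (11.7 and 10.4), SCGB2B2 (11.7 and 8.75), KDM3B (11.0 and 11.2) and SEC22B (10.5 and 11.5). KDM3B encodes an H3K9 demethylase and SEC22B a protein of membrane traffic. This order was chosen after the values were seen. The element CCGGAAG, searched on both strands, occurred in 97 of the 226 windows (42.9%) and in 12.8% of all 22132 windows of this length. No other of the 13 motifs searched differed by as many percentage points. GGGCGG (SP and KLF factors) was in 54.4% against 56.3%, CCAAT (NFY) in 32.7% against 34.6%, and AAGATGGCG (YY1) in 4.87% against 2.42%. TGACTCA (AP-1) was in 0.885% against 4.01%, and GAGGAAGT (PU.1), which shares the GGAAG core of the ETS element, in 1.77% against 2.63%. TGACGTCA (CRE), TTCCCGCC (E2F, which can overlap GGGCGG), GCGCATGCG (NRF1), CACGTG (E-box), ACTACAATT (ZNF143), GTTCGANNC (B box) and TGTTTAC (forkhead) were in 0.442% to 10.2% of windows with a summit and 0.380% to 8.34% of all. Mean GC content was 59.9% in windows with a summit and 61.0% in all windows. The median distance from summit to nearest match was 65 bp for CCAAT, 90 bp for GGGCGG and 119 bp for CACGTG. For CCGGAAG it was 108 bp over 82 peaks, with 19.5% of them within 50 bp, against 25% to 36.5% for the others. Summits and matches were taken from the same short windows, so these distances are bounded and show no particular closeness of CCGGAAG to the summit. Of the 82 peaks with the element, 9.76% and 6.10% lay in H3K9me3 domains in the sgControl libraries, and of the 103 without it 8.74% and 10.7%. In SKO the shares were 19.5% and 19.5% with the element and 22.3% and 20.4% without it. In DKO they were 15.9% and 13.4% with it and 21.4% and 23.3% without it. Windows that overlap share sequence, and a match is a description of letters.

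Peaks clustered along the genome. A neighbour within 10 kb was found for 50.8% of shared peaks. Of the 11123 replicate 1 peaks that were not shared, 33.0% had one. In each set only peaks of the same set counted as neighbours. Of all replicate 1 peaks, shared or not, 58.6% had a neighbour, which is above both shares. The contrast therefore depends on how the peaks were split, and is not shown to be a property of shared peaks. For shared peaks at zinc finger genes the share was 91.7%, with a median distance to the nearest neighbour of 0.436 kb. For the other shared peaks it was 44.4%. Some regions were called as several peaks in 1 library and as 1 in the other, and 1684 shared peaks (13.7%) overlapped more than 1 replicate 2 peak. Joining peaks no more than 10 kb apart gave 8049 runs, of which 6058 were single peaks and 60 held 10 or more. The longest run held 65 peaks over 302 kb (chr19:57354562-57656386), from ZNF304 to ZSCAN4. A run on chromosome 12 held 41 peaks over ZNF26, ZNF84, ZNF140, ZNF891 and ZNF10 (chr12:132983919-133134080).

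Chromosome 19 held 1469 shared peaks, 11.9% of the map on 1.93% of the genome. Its density was 25.1 peaks per Mb, against 4.06 over the genome. Without peaks at zinc finger genes it was still 9.97 per Mb, against 3.57 over the genome. This took out only peaks in or within 2 kb of coding zinc finger genes. Peaks farther from these genes in the same clusters remained, as did those over zinc finger pseudogenes such as ZNF887P. The density that is left is therefore not separate from the zinc finger clusters. Next came chromosome 20 (5.98), chromosome 8 (5.41), chromosome 15 (5.11) and chromosome 7 (5.05), and the lowest were X (1.74) and chromosome 22 (1.28). Replicate 1 peaks without a partner were likewise densest on chromosome 19 (17.5), chromosome 20 (7.35) and chromosome 8 (5.28) and sparsest on X (1.77) and chromosome 22 (1.26). The 5 densest 1 Mb windows were all on chromosome 19. They held 159 peaks at 57 to 58 Mb, 124 at 52 to 53 Mb, 109 at 12 to 13 Mb, 91 at 36 to 37 Mb and 83 at 9 to 10 Mb. In the first, 32 of 40 protein-coding genes were zinc finger genes, with the strongest peak at ZNF154, ZSCAN4 and ZNF551 (63.7 in replicate 1). In the others the strongest genes were ZNF614, ZNF564, ZNF529 and ZNF121. Their strongest replicate 1 signals were 47.6, 87.7, 50.4 and 94.9. At the other extreme, 30.4% of the 3043 windows held no shared peak.

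**Figure D4:**
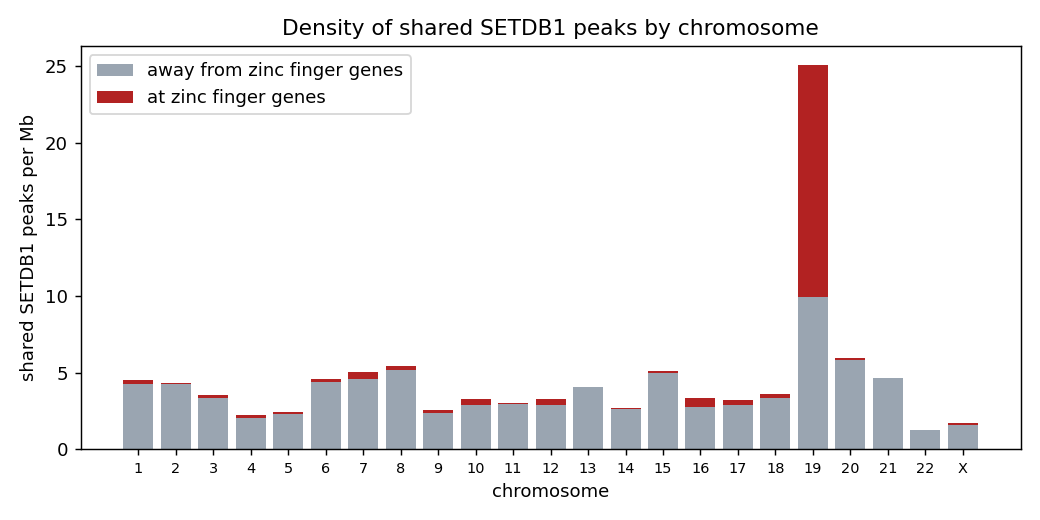
Bars give shared SETDB1 peaks per Mb for each chromosome, with the part at zinc finger genes in red. Chromosome 19 stands at 25.1 per Mb, and chromosome 20 is next at 5.98.

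Most SETDB1 peaks lay in H3K9me3 domains, in control and knockout cells alike. In the sgControl libraries 68.6% and 66.0% of shared peak midpoints lay in a domain, while domains covered 34.4% and 33.4% of the genome. In SKO the shares were 84.6% and 84.5% on 24.9% and 24.9% of the genome, and in DKO 83.6% and 82.2% on 26.2% and 26.0%. All 4 knockout libraries were above both sgControl libraries. The means were 67.3 ± 1.80% in sgControl, 84.6 ± 0.0862% in SKO and 82.9 ± 0.994% in DKO (SD, n = 2 libraries). The domains thus covered less of the genome in the knockouts and held more of the SETDB1 peaks, shared and unshared alike. The slope over the number of SUV39H genes targeted was 7.78 percentage points per gene, which did not pass an exact two-sided permutation test (p = 0.133, Benjamini-Hochberg adjusted over the 2 marks p = 0.267). The smallest p that its 90 assignments allow is 0.0222. The knockouts together stood 16.4 points above sgControl, a comparison chosen after seeing the data, with an exact two-sided permutation p = 0.0667, the smallest that 2 against 4 libraries can give.

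The peaks differed in this by strength and place. Of the 100 strongest, 100% lay in H3K9me3 domains in both sgControl and both DKO libraries and 99% in both SKO libraries. For peaks at zinc finger genes the shares were 94.0% and 94.2% in sgControl, 97.2% and 97.1% in SKO and 95.9% and 95.8% in DKO. Peaks over promoter windows were inside far less often, with 22.3% and 22.2% in sgControl, 37.1% and 37.1% in SKO and 35.8% and 37.1% in DKO. In both classes, as in all shared peaks, every knockout library was above both sgControl libraries. Replicate 1 peaks without a partner were inside less often than shared peaks in 6 of 6 libraries, with 61.1% and 59.1% in sgControl. They too were inside more often in the knockouts, with 73.8% and 73.3% in SKO and 71.5% and 70.6% in DKO. Replicate 2 peaks without a partner went from 58.5% and 56.3% in sgControl to 70.1% and 69.7% in SKO and 67.8% and 66.8% in DKO. The higher share in knockouts was therefore not particular to shared peaks. Midpoints of 7437 shared peaks (60.4%) lay inside in all 6 libraries, 1432 (11.6%) in the 4 knockout libraries only and 38 in both sgControl libraries only. A further 1420 (11.5%) lay in no H3K9me3 domain of any library. That last class was narrower (median 798 bp against 1211 bp for those inside in all libraries). Of its peaks off chromosome 8, 26.4% overlapped a promoter window, against 1.72% of those inside in all libraries.

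Among zinc finger genes, H3K9me3 coverage differed with SETDB1. Domains covered a mean of 83.6% and 83.5% of the gene body in the sgControl libraries for the 395 genes with a shared peak. For the 162 genes without one they covered 22.99% and 21.63%. In SKO the means were 86.7% and 86.9% against 19.4% and 20.6%, and in DKO 83.7% and 85.2% against 21.98% and 23.33%. The groups of genes stood apart in every library by more than 60 points, while genotypes differed by less than 4 points within a group.

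Few SETDB1 peaks lay in H3K27me3 domains. The shares were 14.6% and 14.5% in sgControl, 11.2% and 10.8% in SKO and 13.1% and 12.3% in DKO. Domains of this mark covered 34.9% and 35.1% of the genome in sgControl, 39.9% and 39.6% in SKO, and 40.4% and 39.5% in DKO. The slope was −0.91 percentage points per gene (exact two-sided permutation p = 0.311, adjusted p = 0.311). The difference of the knockouts together from sgControl was −2.67 points, with the smallest possible exact permutation p = 0.0667. At zinc finger genes SKO stood apart from the other two. There 20.3% and 20.6% of peaks lay in H3K27me3 domains in sgControl, 7.30% and 7.17% in SKO, and 21.5% and 18.8% in DKO. The SKO libraries were below all others, and DKO overlapped sgControl. This difference between genotypes was not tested, and an exact permutation test of 2 libraries against 2 cannot reach 0.05.

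**Figure D5:**
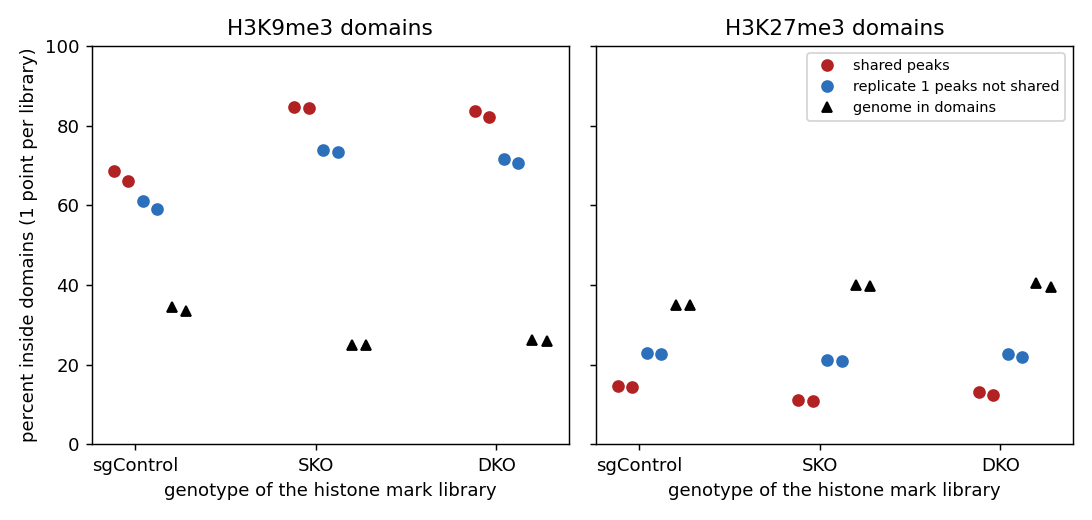
Points give, for each H3K9me3 (left) or H3K27me3 (right) library, the percent of shared SETDB1 peaks (red) and of unshared replicate 1 peaks (blue) with their midpoint inside a domain, and the percent of the genome in domains (black triangles). Shared peaks lie at 66.0% to 84.6% for H3K9me3, above the triangles, and at 10.8% to 14.6% for H3K27me3, below them.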

How the data were processed

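Peaks, domains and replicate numbers were taken from the files and titles as deposited. The SETDB1 lists give a score (signal) and a −log10 p per peak, deposited by the authors per library; no peak had a −log10 p below 5.00. The H3K9me3 and H3K27me3 lists hold broad domains on an 800 bp grid, with a deposited read count that was not used and a score used only to rank domains. Trim Galore 0.6.10, FastQC 0.12.1, deepTools 3.5.6 and SICER, and the builds hg38 and dm6, appear in the submitters' processing notes. Spike-in chromatin from Drosophila is described in the labels for the histone marks. No source used here gives the peak caller, its control, the aligner or how multiply matching reads were treated, or the scale of the signal score. The depth of the SETDB1 libraries is unknown, since the lists hold no reads.

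Everything else was computed with Python 3.11.15, numpy 2.4.6, pandas 2.3.3, scipy 1.17.1 and matplotlib 3.10.9, on chromosomes 1 to 22 and X. The farthest called or annotated base stood for chromosome length (3030 Mb in total). Gene spans and promoter windows came from RefSeq tables of GRCh38.p14, the primary sequence of which is that of hg38. Strand was known for 15813 genes. Peaks were placed in a domain by their midpoint. The tests were exact two-sided permutation tests over the 6 libraries of a mark, with Benjamini-Hochberg adjustment over the 2 marks. Overlap and test code was checked on simulated data. Replicate numbers were shared across genotypes, but the labels tie them to no shared culture or day, and the fit with replicate number as a block was an alternative. Named were the genes of the 20 strongest peaks, the 5 genes with most peaks, the strongest genes of the 5 densest 1 Mb windows, and up to 4 genes with the strongest peak in each of 20 gene lists. The peaks and lists were chosen with earlier results of these data known.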

Additional observations from a re-analysis of the deposited data

How the results depend on the processing

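A count was taken as moved when it changed by more than 1.5 times, and a share when it left its exact 95% binomial interval. That interval was 5.11% to 5.95% at a gene start and 49.9% to 51.7% with a neighbour. It treats peaks as independent, which they are not, so it served as a fixed limit only and measures no spread between libraries. Of 60 alternative values 16 moved by these limits, and the other 44 did not or, for a slope, kept their direction and side of the threshold. A −log10 p of at least 10 in both libraries left 3776 shared peaks and 1676 genes with a peak. It gave 8.28% of peaks at a gene start and 26.6% with a neighbour within 10 kb. Reciprocal overlap of 50% left 8273 shared peaks and 3002 genes, against 12304 and 3607, and gave 6.27% at a gene start and 37.1% with a neighbour. Using 1 SETDB1 library in place of both gave 23427 to 24366 peaks, 5330 to 5347 genes, 3.50% to 3.88% at a gene start and 58.6% to 60.2% with a neighbour. The summit or midpoint, in place of any overlap, lay in a promoter window for 1.61% and 1.70% of peaks. A neighbour was found for 45.3% within 5 kb and for 70.1% within 50 kb. The cause of these shifts was not tested. For H3K9me3 the slope stayed positive in all 17 alternatives and for H3K27me3 negative in all 17, and none passed the test. Leaving out 1 histone mark library at a time gave slopes of 5.88 to 9.44 points per gene for H3K9me3 and −1.44 to −0.51 for H3K27me3. With the replicate block, where genotypes were permuted within a replicate number, the slope of 7.78 for H3K9me3 had an exact permutation p = 0.222 and that of −0.91 for H3K27me3 p = 0.389. The authors' domain lists give no spike-in factor, so they show where domains were called, not the amount of the mark.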

Other observations

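Among the 1420 shared peaks in no H3K9me3 domain of any library, the strongest away from gene starts were at non-coding or intergenic places. A peak in LOC105378956 (chr11:120082123-120082621) had signals of 20.8 and 25.6. It lies between stronger peaks (34.6 and 34.3 at chr11:120076867-120081943, and 46.6 and 49.8 at chr11:120084955-120093036) that were inside H3K9me3 domains in both sgControl and both DKO libraries. A peak 17.8 kb from NCR2, an activating receptor gene of natural killer cells, had 17.7 and 12.1 (chr6:41367577-41369903), and one over FAM225A and FAM225B had 16.3 and 17.0. At gene starts the strongest of this class lay over the divergent pair CCDC59 and METTL25 (15.4 and 12.5), beside GNL3L (14.9 and 10.8) and at TBC1D19 (14.5 and 11.6). Among ranks 101 to 500, 20 peaks (5%) lay outside H3K9me3 domains in both sgControl libraries and inside them in all 4 knockout libraries. Over all shared peaks this share was 11.6%, so the pattern was less common among these strong peaks. Examples were a peak at SEMA6A, a semaphorin gene, with 32.8 and 30.6 (chr5:116475127-116478937), and one over LOC124907874 and DDX11L2 with 31.4 and 32.9 (chr2:113601650-113605425).

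H3K9me3 domains that held a shared SETDB1 peak were a minority of all domains. They made 15.8% and 15.9% of domains in the sgControl libraries, 21.2% and 23.7% in SKO and 19.9% and 23.2% in DKO. In each of the 6 libraries their median width was above that of the other domains, with 25.6 against 21.6 kb and 28 against 23.2 kb in sgControl. Width and the holding of a peak were not separated here.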
